A study of Mus musculus with 6 samples.

Results

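The genes examined here are 10 cytokines and chemokines that muscle cells secrete or respond to: Il1b, Il6, Il15, Lif, Csf1, Ccl2, Ccl7, Cxcl1, Cxcl5 and Cxcl12. They were picked by name, with earlier results of these data known. Every probe whose RefSeq accession belongs to one of them was used, so no measured value chose among their probes for this set. This gave 13 probes for the 10 genes. Measured signal did enter the test, where the brightest probe that passed the filter on dim probes stood for its gene. The array carries 39429 probes that are not controls, of which 27234 have a gene name and stand for 20659 named genes.

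The cells were C2C12, an established mouse myoblast line that divides in serum-rich medium and fuses into myotubes when serum is withdrawn. For all 6 arrays the cells were kept in medium with 10% fetal bovine serum, and transfection was done at 70 to 80% confluence with a lipid reagent. The labels call the 3 arrays of each group biological replicates. The siRNA-MEG3 group (3 arrays) received siRNA that targets Meg3, a long non-coding RNA, in an amount the labels give as "20 um", and the siRNA-NC group (3 arrays) received a negative control siRNA. The question was how silencing of Meg3 alters gene expression in these cells. The time from transfection to RNA extraction and the siRNA sequences are not given in the sources used here. Both groups come from 1 cell line, and nothing in the labels names separate days or passages behind the replicates.

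Cytokines are secreted proteins that act through receptors on the same or on neighbouring cells. Il1b signals through its receptor to the transcription factor NF-kB, which drives many inflammatory genes, while Il6 and Lif share the receptor subunit Il6st and signal through Janus kinases to STAT factors. Chemokines bind receptors coupled to G proteins and direct the migration of leukocytes; in muscle, Ccl2 and Ccl7 draw monocytes to damaged fibres, and Cxcl12 acts through Cxcr4 on muscle progenitors.

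The upstream sequences below are shown because several of these genes are textbook targets of NF-kB and AP-1, and because the genes differed in direction between the groups. Each is the 250 bases before the RefSeq start site in GRCm38.p6, on the strand of the gene: Il1b chr2:129371140-129371389 (minus strand), Il6 chr5:30012864-30013113 (plus), Lif chr11:4257318-4257567 (plus), Csf1 chr3:107760470-107760719 (minus) and Cxcl1 chr5:90890995-90891244 (plus). Capitals mark matches to the NF-kB consensus, to the AP-1 site TGANTCA or to the TATA box letters TATAAA, searched on both strands.
Il1b: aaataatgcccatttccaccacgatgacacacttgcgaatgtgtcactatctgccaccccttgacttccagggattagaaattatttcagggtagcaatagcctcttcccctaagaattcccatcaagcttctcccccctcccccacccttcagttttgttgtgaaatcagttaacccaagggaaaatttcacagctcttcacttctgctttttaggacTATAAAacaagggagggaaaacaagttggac
Il6: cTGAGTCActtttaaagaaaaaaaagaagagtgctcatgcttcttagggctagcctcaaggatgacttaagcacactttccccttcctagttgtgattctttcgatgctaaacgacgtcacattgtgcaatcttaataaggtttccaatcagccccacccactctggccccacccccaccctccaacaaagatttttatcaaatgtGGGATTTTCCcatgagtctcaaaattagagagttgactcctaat
Lif: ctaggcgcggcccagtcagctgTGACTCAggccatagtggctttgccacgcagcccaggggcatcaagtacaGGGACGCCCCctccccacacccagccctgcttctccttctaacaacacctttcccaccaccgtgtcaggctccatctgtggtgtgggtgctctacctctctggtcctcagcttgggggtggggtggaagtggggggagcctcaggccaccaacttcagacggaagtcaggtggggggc
Csf1: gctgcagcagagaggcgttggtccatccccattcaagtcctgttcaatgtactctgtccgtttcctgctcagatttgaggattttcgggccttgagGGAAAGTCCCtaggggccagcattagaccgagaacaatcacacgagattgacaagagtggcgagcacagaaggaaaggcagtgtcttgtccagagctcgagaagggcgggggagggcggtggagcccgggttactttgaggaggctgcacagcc
Cxcl1: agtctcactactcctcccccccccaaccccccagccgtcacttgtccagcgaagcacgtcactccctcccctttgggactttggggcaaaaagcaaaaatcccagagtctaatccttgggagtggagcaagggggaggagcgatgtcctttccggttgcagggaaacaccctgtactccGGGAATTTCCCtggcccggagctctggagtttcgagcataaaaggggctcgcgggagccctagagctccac
Il1b held TATAAA 31 to 26 bases before its start site. The Il6 window held the NF-kB match GGGATTTTCC at 44 to 35 bases before the start and the AP-1 match TGAGTCA at 249 to 243. In Lif the NF-kB match GGGACGCCCC, which reads as a match on both strands, lay 178 to 169 bases upstream and the AP-1 match TGACTCA 228 to 222 bases upstream. Csf1 carried GGAAAGTCCC, a match on the minus strand, 154 to 145 bases upstream. Cxcl1 carried a pair of overlapping NF-kB matches, GGGAATTTCC at 71 to 62 bases and GGAATTTCCC on the minus strand at 70 to 61 bases. Cxcl12, the other gene of the set in the table of promoters used here, held none of these letters in its window. Over 32851 mouse promoters of the same length, 7.25% held the NF-kB consensus, 6.75% the AP-1 site and 12.4% the TATA box letters. A match of letters does not show that a factor binds there.

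On the arrays, 62.8 to 75.2% of spots were well above background and none was saturated. Meg3 itself could not be checked, because 1 of its 3 probes was well above background on siRNA-NC array 2 alone and none was so on any siRNA-MEG3 array. Over 230 probes printed 10 times, the deviation of each spot from its probe mean was nearly the same on siRNA-MEG3 arrays 1 and 3 (r = 0.978, and -0.146 to 0.541 for other array pairs), the pattern of repeat scans. For siRNA-NC arrays 1 and 3 the variance between probes was 1.02 times that within probes, and for siRNA-NC arrays 1 and 2 it was 176 times. For siRNA-MEG3 arrays 1 and 2, which were kept apart, it was 1.43 times. It was 2.10 times for siRNA-MEG3 arrays 1 and 3, a pair joined for its spot pattern and not for this ratio. Pairs of a siRNA-NC and a siRNA-MEG3 array gave 74.1 to 144 times, less than siRNA-NC arrays 1 and 2. So arrays 1 and 3 of each group were averaged into 1 sample, leaving n = 2 samples per group, and siRNA-NC array 2 stands apart from the other control sample. The 3 siRNA-NC arrays share 1 scan and the siRNA-MEG3 arrays lie in other scans, so scan and treatment cannot be told apart in any value. Only the scatter among these samples enters the p-values, and part of it may be technical. All 8 myoblast markers on the list were measured and 0 passed the limma test between the groups, with 4 at an unadjusted p under 0.05. Among these 4, Myod1 was 4.64-fold higher (adjusted p = 0.120) and Myf5 7.70-fold lower (adjusted p = 0.0703) with siRNA-MEG3. Cdh15 was 2.52-fold higher (adjusted p = 0.0988) and Itga7 1.67-fold higher (adjusted p = 0.182). Over all genes tested, 1.37% passed and 18.6% had an unadjusted p under 0.05. All 9 myotube markers lay higher on every siRNA-MEG3 array than on any siRNA-NC array, where 25.3% of all genes tested did so. All 9 had an unadjusted p under 0.05, and 5 passed the limma test (median log2 fold change 3.31 over the 9). The summed scaled signal of the 9 ranged from 8.21 to 9.62 across siRNA-NC arrays and from 35.7 to 36.6 across siRNA-MEG3 arrays. The part of these differences in the cytokine values was not tested. In total RNA from whole cultures, fewer cells of a type and less RNA per cell cannot be told apart.

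Among the 10 genes, Il1b was the single one that passed the test between the groups, and it rose with siRNA-MEG3. The filter on dim probes let it in only through the siRNA-MEG3 group, where it was high. Of the 9 genes measured under the filter on dim probes, 1 rose, 0 fell and 8 did not pass at a limma adjusted p of 0.05. The test covered 22054 entries, of which 15363 have a gene name and 6691 do not; they are called genes below. Over all of them, 0.952% rose and 0.422% fell, or 1.37% in either direction. Of the 9, 4 had a positive and 5 a negative log2 fold change, and the median was -0.39 against -0.02 over all genes tested. At an unadjusted p under 0.05 the count was 4 of 9 (Il1b, Il6 and Lif higher, Ccl7 lower), where 18.6% of all genes did so. All 3 siRNA-MEG3 arrays lay above all 3 siRNA-NC arrays for 3 of the 9 genes and below them for 5, against 25.3% and 21.9% of all genes.

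**Figure D1:**
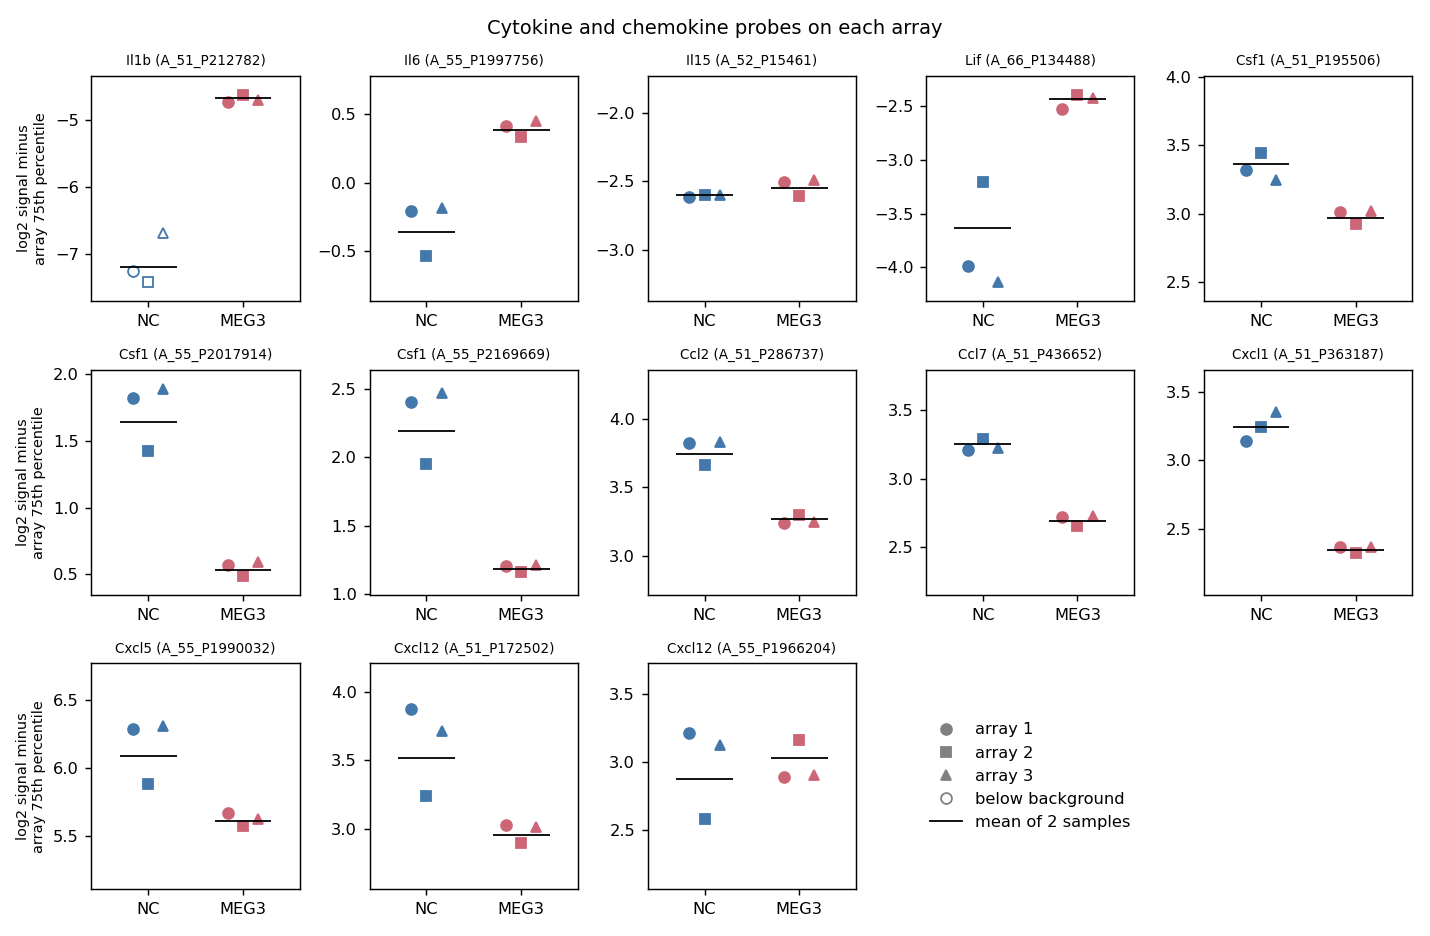
Scaled log2 signal of each of the 13 probes on the 3 siRNA-NC and 3 siRNA-MEG3 arrays (y axis: log2 processed signal minus the array's 75th percentile). Marker shapes give the array number, and bars are means of 2 samples, with arrays 1 and 3 averaged first. Open markers, named below background in the key, mark a probe not well above background on any siRNA-NC array. Each panel has its own axis range. Il1b, Il6 and Lif lie higher on every siRNA-MEG3 array, Il15 and the second Cxcl12 probe overlap between the groups, and the other probes lie lower.

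Il1b encodes a proinflammatory cytokine made as a precursor and released after cleavage by the inflammasome. Its probe A_51_P212782 is printed 10 times. The median processed signal of its clean spots was 9.78, 12.4 and 11.4 on the siRNA-NC arrays in the order 1 to 3, against 48.8, 54.4 and 49.0 with siRNA-MEG3. It was not well above background on any siRNA-NC array and was so on all 3 siRNA-MEG3 arrays, with no overlap. On the scale used for all comparisons below, which is the log2 processed signal minus the 75th percentile of the array, the values were -7.25, -7.42 and -6.68 with siRNA-NC, against -4.74, -4.64 and -4.71 with siRNA-MEG3. Since the siRNA-NC level is only a bound, the difference is given as at least 4.05-fold higher (fitted log2 fold change 2.51 ± 0.25 SE, n = 2 samples per group, limma adjusted p = 0.0425). Bounds of this kind take, for each dim array, the higher of the probe's own signal and the lowest signal among probes well above background. Il1b entered the test only through the siRNA-MEG3 group, where it was high, and it has no test when every array must be well above background. It stayed a dim probe in both groups. With normexp background correction, which adds an offset of 50 to every signal, its log2 fold change was 0.99 (limma adjusted p = 0.245), below the bound. An offset near the siRNA-MEG3 medians shrinks the difference of a dim probe, so this fit cannot decide whether the background matters. Over all alternatives the adjusted p ran from 2.49e-05 to 0.245. The lowest came from a fit with scan as a random block, which counts repeat measurements as samples. Without siRNA-NC array 2 the fitted value was 2.29 with an adjusted p of 0.118, and without siRNA-NC array 1 it was 2.37 with an adjusted p of 0.0760. The fit without siRNA-NC array 2 has a lone control sample, and 0 of its 22212 genes passed (limma; 7417 had an unadjusted p under 0.05).

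**Figure D2:**
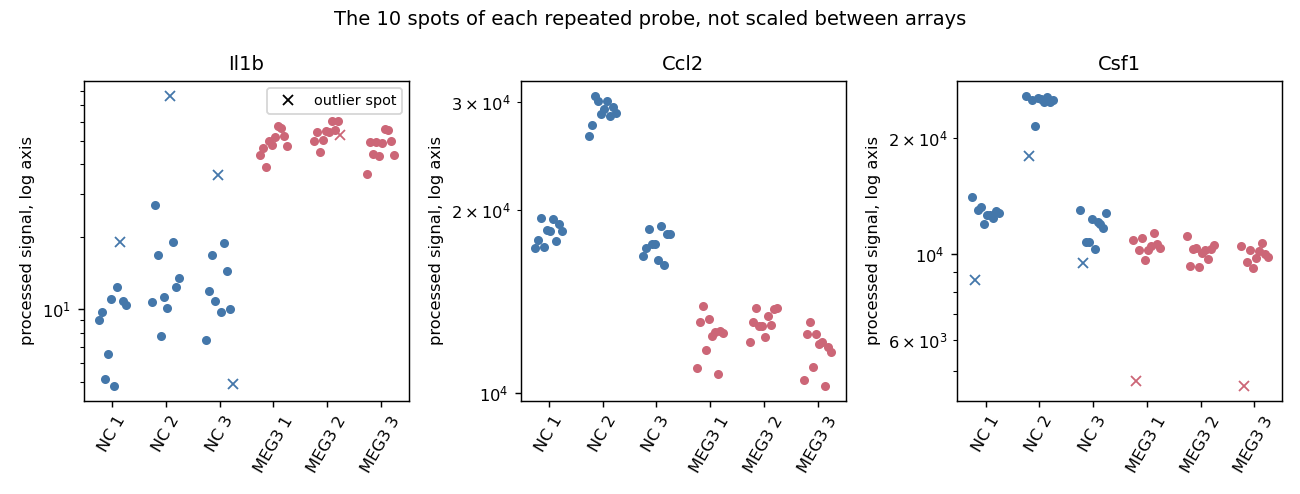
Processed signal (log axis, not scaled between arrays) of the 10 spots of the probes for Il1b, Ccl2 and Csf1 on each array; crosses are spots marked as outliers and left out. The siRNA-MEG3 spots of Il1b cluster around medians of 48.8 to 54.4, while the siRNA-NC medians are 9.78 to 12.4; siRNA-NC array 2 is brighter than the other siRNA-NC arrays for Ccl2 and Csf1.

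Il6 and Lif belong to the cytokine family that signals through Il6st. Il6, which contracting muscle releases, gave a processed signal of 1118, 1572 and 1086 with siRNA-NC, against 1743, 1684 and 1687 with siRNA-MEG3. Scaled, these were -0.21, -0.54 and -0.18 against 0.42, 0.34 and 0.45. Every siRNA-MEG3 array was above every siRNA-NC array. The log2 fold change of 0.75 ± 0.23 (SE, n = 2 samples per group; 95% interval 0.12 to 1.38) did not pass after adjustment over all genes (limma adjusted p = 0.212).

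Lif, a factor that promotes myoblast proliferation, read -3.99, -3.21 and -4.14 on the siRNA-NC arrays, against -2.52, -2.40 and -2.42 on the siRNA-MEG3 arrays. The groups did not overlap, but siRNA-NC array 2 lay well above the other siRNA-NC arrays, and the SD between samples was 0.604 with siRNA-NC and 0.0527 with siRNA-MEG3. The log2 fold change was 1.20 ± 0.35 (SE, n = 2 samples per group; 95% interval 0.24 to 2.17; limma adjusted p = 0.201). It was 1.63 without siRNA-NC array 2. Over the alternatives the adjusted p ran from 0.000396 to 0.327, the lowest with scan as a random block, which counts repeat measurements as samples. Over all genes the median SD between samples was 0.280 with siRNA-NC and 0.0915 with siRNA-MEG3.

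Il15, a cytokine that muscle makes and that supports lymphocytes through a receptor containing Il2rb and Il2rg, was nearly level. It read -2.62, -2.60 and -2.60 with siRNA-NC, against -2.50, -2.61 and -2.49 with siRNA-MEG3, and the groups overlapped. The log2 fold change was 0.05 ± 0.20 (SE, n = 2 samples per group, limma adjusted p = 0.923), with a 95% interval of -0.49 to 0.60, which leaves room for a change in either direction. In the authors' deposited table the same difference was -0.00698.

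Csf1, the growth factor for macrophages, was read by 3 probes, and all 3 were lower on every siRNA-MEG3 array than on any siRNA-NC array. The probe A_51_P195506, printed 10 times and designed to the transcript NM_007778, stood for the gene. It read 3.32, 3.44 and 3.25 with siRNA-NC, against 3.01, 2.93 and 3.02 with siRNA-MEG3 (log2 fold change -0.39 ± 0.21 SE, n = 2 samples per group, limma adjusted p = 0.403). The probes A_55_P2017914 and A_55_P2169669 are both designed to NM_001113530 and showed larger differences. A_55_P2017914 read 1.82, 1.42 and 1.88 against 0.57, 0.49 and 0.59, a log2 fold change of -1.10 ± 0.25 (adjusted p = 0.150, with every probe as its own row of the fit). A_55_P2169669 read 2.41, 1.95 and 2.47 against 1.21, 1.16 and 1.22, a log2 fold change of -1.01 ± 0.26 (adjusted p = 0.176). None of the probes passed the test, and the difference between the transcripts was not tested.

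**Figure D3:**
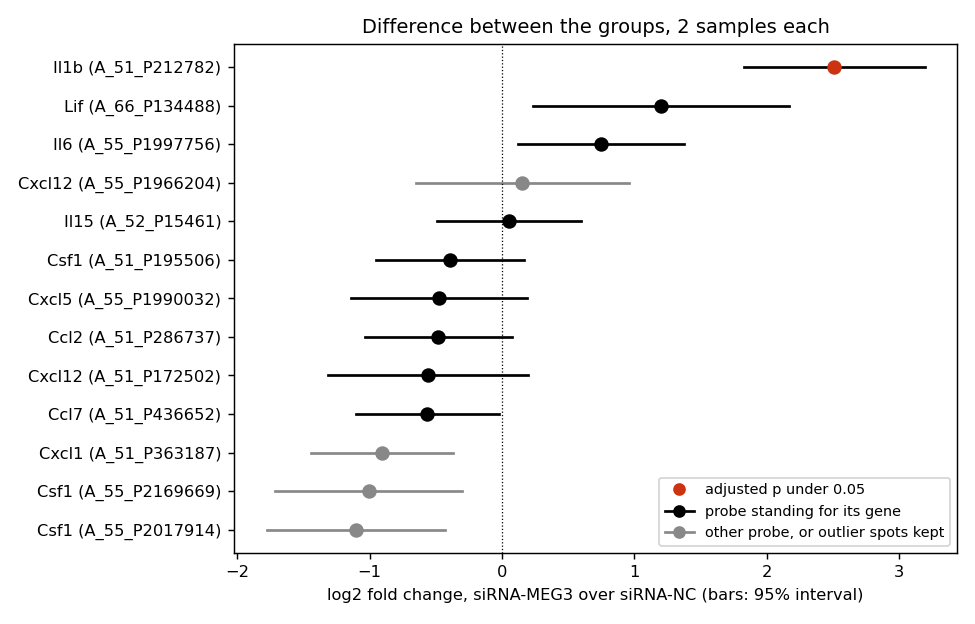
Log2 fold change of each probe, siRNA-MEG3 over siRNA-NC, with 95% intervals from limma (2 samples per group). Il1b (red) is the one value with an adjusted p under 0.05, at 2.51; Lif and Il6 follow at 1.20 and 0.75, and the lowest values are the 2 further Csf1 probes at -1.10 and -1.01. Grey points are further probes of a gene, or Cxcl1 with its marked spots kept. The siRNA-NC level of Il1b is a bound, so its fitted value and interval are not exact, and it entered the test only through the siRNA-MEG3 group.

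Ccl2 and Ccl7 encode monocyte chemoattractants of the same chemokine cluster. Ccl2, whose probe is printed 10 times, read 3.83, 3.67 and 3.83 on the siRNA-NC arrays, against 3.24, 3.30 and 3.25 on the siRNA-MEG3 arrays, and its 10 spots gave medians of 17568 to 28997 against 11962 to 13033 before scaling. Ccl7 read 3.21, 3.29 and 3.22 against 2.72, 2.66 and 2.73. Neither gene overlapped between the groups, and siRNA-MEG3 was lower for both. The log2 fold change was -0.48 ± 0.20 (SE; 95% interval -1.04 to 0.08; limma adjusted p = 0.320) for Ccl2. For Ccl7 it was -0.56 ± 0.20 (95% interval -1.10 to -0.02; adjusted p = 0.254), with n = 2 samples per group in both. With all 6 arrays taken as separate samples both passed (-0.51 with adjusted p = 0.0172, and -0.54 with adjusted p = 0.0117), but that counts repeat measurements of 1 sample as replicates. Over the alternatives the log2 fold change ran from -0.56 to -0.40 for Ccl2 and from -0.57 to -0.41 for Ccl7. The lowest adjusted p, 0.000452 for Ccl2 and 0.000280 for Ccl7, came with scan as a random block, which also counts repeat measurements as samples.

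Cxcl1 and Cxcl5 encode chemokines that attract neutrophils through Cxcr2. The single Cxcl1 spot was marked as non-uniform on siRNA-MEG3 arrays 1 and 3, so Cxcl1 had no value in the test. With those spots kept, Cxcl1 read 3.14, 3.25 and 3.36 with siRNA-NC, against 2.36, 2.32 and 2.37 with siRNA-MEG3, a log2 fold change of -0.90 ± 0.20 (SE, n = 2 samples per group; 95% interval -1.44 to -0.37; limma adjusted p = 0.145). Array 2, on which the spot was not marked, lay at the level of the other siRNA-MEG3 arrays. Cxcl5 read 6.29, 5.88 and 6.31 against 5.67, 5.58 and 5.63. It was lower on every siRNA-MEG3 array, with a log2 fold change of -0.48 ± 0.24 (95% interval -1.14 to 0.19; adjusted p = 0.395), and the value was smaller in size, -0.28, after quantile normalization.

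Cxcl12, which guides progenitors that carry Cxcr4, had 2 probes, and they did not go the same way. A_51_P172502, designed to NM_001012477 and used for the gene, read 3.87, 3.24 and 3.72 with siRNA-NC, against 3.03, 2.89 and 3.01 with siRNA-MEG3 (log2 fold change -0.56 ± 0.28 SE, n = 2 samples per group, limma adjusted p = 0.378). A_55_P1966204, designed to NM_021704, read 3.21, 2.58 and 3.12 against 2.89, 3.16 and 2.90, and its groups overlapped (log2 fold change 0.16 ± 0.30, adjusted p = 0.833). The median over both probes was -0.20. siRNA-NC array 2 was the lowest siRNA-NC array on both probes. Neither probe passed, and the difference between them was not tested.

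Parts of the siRNA-MEG3 arrays were darker than the rest: when each array was divided into blocks of 30 rows and 17 columns, the blocks with above 5% of their bright spots (well above background on every siRNA-NC array) lying 4-fold or further below siRNA-NC made up 34.4, 6.67 and 23.3% on arrays 1 to 3. Single spots in such blocks were those of Il15, Cxcl5 and the Csf1 probe A_55_P2017914 on arrays 1 and 3, and of the Cxcl12 probe A_55_P1966204 on array 2. For the probes printed 10 times the position could be compared. With spots marked as outliers left out, Il1b spots on array 1 lay 2.25 above the siRNA-NC mean inside the dark blocks and 2.40 above it outside them, on the log2 scale, and on array 3 these values were 2.59 and 2.34. Ccl2 spots on array 1 differed from the siRNA-NC mean by -0.50 inside and -0.56 outside, and those of Csf1 by -0.28 and -0.34. Inside the dark blocks of array 1, Il1b read lower than outside and Ccl2 and Csf1 read higher.

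Among 23 receptors and binding partners of these ligands, 1 of 18 measured rose and 0 fell (4 had an unadjusted p under 0.05), with a median log2 fold change of -0.19. Over all genes tested, 1.37% passed and 18.6% had an unadjusted p under 0.05, and these shares are the base for the lists that follow. The riser was Il2rg, the common gamma chain that the Il15 receptor shares with other interleukin receptors. It read -5.70, -5.13 and -5.31 with siRNA-NC, against -2.82, -2.98 and -2.80 with siRNA-MEG3, was well above background on all 6 arrays, and rose by 2.42 ± 0.24 (5.35-fold; limma adjusted p = 0.0425). The call was lost in 7 of 20 alternatives. Among them were normexp background correction (1.57, adjusted p = 0.0558), the one without siRNA-NC array 2 (2.61) and the one without siRNA-NC array 3 (2.52, adjusted p = 0.0533). Its partner chains did not pass: Il15ra was at -0.25 ± 0.21 (adjusted p = 0.591) and Il2rb, with siRNA-MEG3, was not well above background on any of the 3 arrays, so no exact difference is given for it.

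Il1r1, Il1rap, Il6ra, Il6st and Lifr, the signalling receptors of Il1b, Il6 and Lif, were measured and did not pass the test. Il1r1, the signalling receptor of Il1b, was well above background on all 6 arrays and stood at 0.03 ± 0.21, and its accessory chain Il1rap at 0.58 ± 0.22. The decoy receptor Il1r2 was not well above background on any array and was not tested. Il6st stood at -0.32 ± 0.23 and Lifr at -0.33 ± 0.28 (its spot on siRNA-MEG3 array 1 was marked as an outlier and left out). The further Lifr probes went the other way, at 0.88 ± 0.22 (limma adjusted p = 0.174) and 0.07 ± 0.22, with every probe as its own row of the fit. Neither of them passed. Il6ra was at -0.55 ± 0.71, and siRNA-NC array 2 read 0.05 where the other siRNA-NC arrays read -1.93 and -1.94. Csf1r, the Csf1 receptor and a macrophage marker, read -1.63, -1.89 and -1.49 with siRNA-NC, against -0.96, -1.05 and -0.90 with siRNA-MEG3 (0.74 ± 0.23, adjusted p = 0.216).

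Chemokine receptors that myeloid cells carry were dim. Ccr1 and Ccr2, which bind Ccl7 and Ccl2, were not well above background on any array, and Cxcr2 was so on 1 siRNA-NC array. Cxcr4, the Cxcl12 receptor, was well above background on all 6 arrays at 0.05 ± 0.21. Ackr3, which scavenges Cxcl12, stood at 0.95 ± 0.26 without passing (adjusted p = 0.180), and Sdc4, a heparan sulfate proteoglycan that binds chemokines, at -0.54 ± 0.20 (adjusted p = 0.264). Leukocyte and macrophage markers were checked beside these values. Of 12 on the array, 8 were measured and none passed, and their summed scaled signal was 3.07 to 3.57 with siRNA-NC and 2.57 to 2.86 with siRNA-MEG3. Tyrobp, Laptm5 and C1qa were not well above background on any array, whereas Cd14, Itgam, Adgre1, Fcer1g, C1qb and Csf1r were so on all 6. Ptprc and Aif1 were so on 3 siRNA-NC arrays and 1 siRNA-MEG3 array, and Lyz2 on 2 siRNA-NC arrays and 0 siRNA-MEG3 arrays. Of the 8 measured, 3 had a positive and 5 a negative log2 fold change. The smallest p was that of Aif1, at -1.45 ± 0.43 (limma adjusted p = 0.204). The part of these markers in the results was not tested. Of 7 endothelial markers, 2 were measured and none passed (summed scaled signal 0.911 to 0.961 with siRNA-NC and 0.912 to 1.25 with siRNA-MEG3).

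Among 61 other cytokines and chemokines, 59 were on the array and 41 were measured; 1 rose and 0 fell (9 had an unadjusted p under 0.05), with a median of 0.10. The one that rose was Cxcl13, a chemokine that attracts B cells. It read -7.82, -8.99 and -8.28 with siRNA-NC, not well above background on any of these arrays, and -3.21, -3.13 and -2.98 with siRNA-MEG3. Cxcl13 too entered the test only through the siRNA-MEG3 group, where it was high. It was at least 12-fold higher on the scale used here (fitted log2 fold change 5.40 ± 0.38, limma adjusted p = 0.0261). Cxcl13 lost the call with normexp background correction, where its log2 fold change of 1.80 (adjusted p = 0.0878) lay below that bound. It also lost the call without siRNA-NC array 2 (4.93), a fit with a lone control sample. Il1rn, the secreted antagonist of the Il1b receptor, was next at 2.09 ± 0.26 (4.26-fold; adjusted p = 0.0559; past the threshold in 6 of 20 alternatives), with -4.96, -4.50 and -4.97 against -2.64, -2.61 and -2.71. Ccl5, a chemoattractant of T cells and monocytes, stood at -1.78 ± 0.29 (adjusted p = 0.0916) and Ccl8, a close relative of Ccl2 and Ccl7, at 1.16 ± 0.22 (adjusted p = 0.116). Ccl8 lay higher on every siRNA-MEG3 array, where Ccl2 and Ccl7 lay lower.

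**Figure D4:**
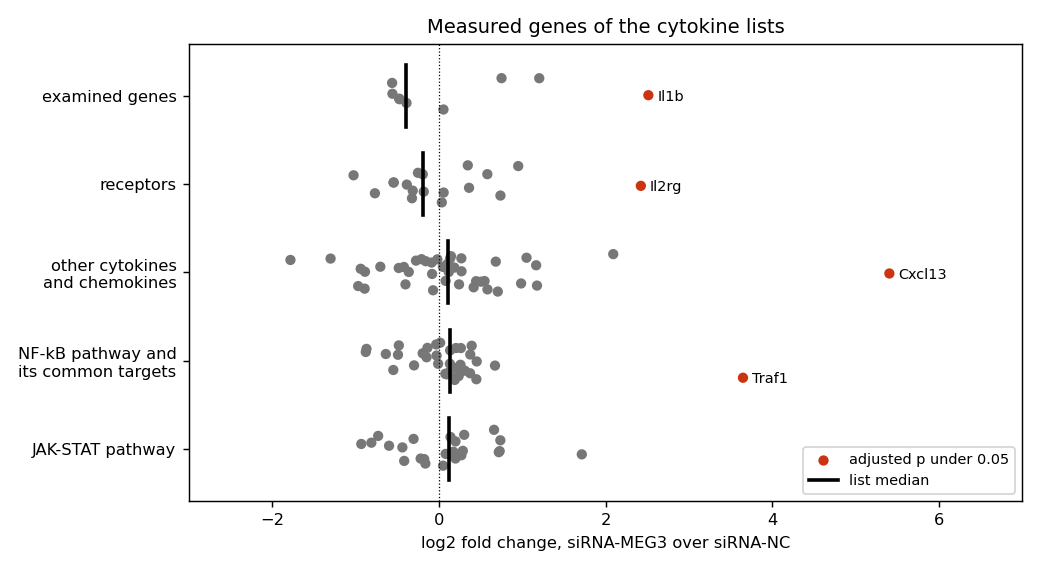
Log2 fold change (x axis, siRNA-MEG3 over siRNA-NC) of each measured gene in the examined set and the 4 pathway lists; black bars are list medians, and red points have a limma adjusted p under 0.05. Each list but JAK-STAT holds 1 red point: Il1b at 2.51, Il2rg at 2.42, Cxcl13 at 5.40 and Traf1 at 3.65. The siRNA-NC levels of Il1b and Cxcl13 are bounds, and both entered the test only through the siRNA-MEG3 group. Vertical scatter has no meaning.

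Of 37 genes of NF-kB signalling and its common targets, 33 were measured, 1 rose and 0 fell (3 had an unadjusted p under 0.05; median 0.13). This was Traf1, an adaptor of TNF receptors and an NF-kB target, which read -5.28, -5.67 and -5.35 with siRNA-NC, against -1.64, -2.07 and -1.61 with siRNA-MEG3. Traf1 rose 12.5-fold (3.65 ± 0.28, limma adjusted p = 0.0284), and with normexp background correction the log2 fold change was 2.39 (adjusted p = 0.0439). The call was lost in 2 of 20 alternatives, among them the one without siRNA-NC array 2. Its log2 fold change ran from 2.39 to 3.87 over the alternatives. The next smallest p-values belonged to Irak1 (0.67 ± 0.21), Tnfrsf1a (-0.55 ± 0.20) and Zc3h12a (-0.88 ± 0.35), none of which passed, and the further Irak1 probes were at -0.24 and -0.38. Nfkbia, the inhibitor that NF-kB itself induces, was picked after its value was seen; it was lower on every siRNA-MEG3 array (-0.48 ± 0.22, adjusted p = 0.341) and did not pass either. In the JAK-STAT list 25 of 32 genes were measured and 0 passed in either direction (5 had an unadjusted p under 0.05; median 0.12). The smallest p there was that of Fos, an AP-1 subunit, at 1.71 ± 0.22 (adjusted p = 0.0630), followed by Ptpn6, Pias2 and Myc, at -0.81, 0.72 and 0.73 (Ptpn6 was well above background on 1 of the 3 siRNA-MEG3 arrays, and stood at -0.04 with normexp background correction). Socs3, the feedback inhibitor of Il6 and Lif signalling and likewise picked after its value was seen, stood at 0.05 ± 0.23 (adjusted p = 0.938).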

How the data were processed

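RNA from 6 C2C12 cultures was hybridised to single-colour Agilent mouse arrays. Per the file headers, the authors' scanner output came from Agilent Feature Extraction 11.0.1.1, whose processed signal intensity has the background subtracted and a spatial trend removed array by array. The deposited table of the series holds the authors' log2 values for 30732 probes; per the labels, repeated probes were averaged and probes whose intensity reached 30 in every sample set a normalization factor, and how it was applied is unknown.

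After removal of spots marked as non-uniform or population outliers, log2 processed signals were averaged per probe, and the 75th percentile of the array over 39429 probes (signal 1232 to 2279) was subtracted. A probe counts as well above background on an array where over 0.5 of its clean spots do. A probe entered the test if every array of a group had it well above background and both samples of both groups had a usable value, with the brightest such probe taken per gene; names came from RefSeq accessions (GRCm38.p6), and the array was designed on an older assembly. The test was limma (version 3.58.1, R 4.3.3; lmFit, eBayes, 2-sided) with group as its term and 2 samples per group, and p-values were adjusted by Benjamini-Hochberg over 22054 genes at a threshold of 0.05; the code was tested on simulated data. Motifs were searched in the RefSeq promoters, which held 6 of the 10 genes. The precision is limited by the number of arrays.

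The genes, the lists and the averaging of arrays were chosen with earlier results of these data known. Named were all 10 genes on every probe, the receptors of the ligands, and from each of 4 pathway lists the 4 measured genes with the smallest p; other names are marked, and 1 listed receptor is not reported here. Further lists held markers of myoblasts, myotubes, leukocytes and macrophages, and endothelium. Alternatives covered background correction, scaling between arrays, the authors' table, the filters on dim probes and outlier spots, the choice of probe, the arrays counted as samples, a replicate block, scan as a random block (added after seeing the data), every probe with outlier spots kept (also added), and leaving out each array. The normexp correction added an offset of 50 to every signal. This shrinks the fold changes of dim probes, so a call lost under it cannot decide whether their background matters. Replicate numbers do not pair the samples: the deviations of same-numbered arrays from their group means correlated at -0.0425 to -0.0324 over genes.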

Additional observations from a re-analysis of the deposited data

How the results depend on the processing

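Il1b kept its direction under all 19 alternatives that gave it a value, and its log2 fold change ran from 0.99 to 2.71. It no longer passed with normexp background correction (0.99), without the filter on dim probes (2.51, adjusted p = 0.111) and with the replicate block in 4 samples (2.51, adjusted p = 0.0717); leaving out 1 array at a time gave 2.29 to 2.65. It was not tested where every array had to be well above background, so 0 of the 10 genes were higher there. The count was also 0 with normexp, no filter and the replicate block in 4 samples, and 0 to 1 when 1 array was left out. With all 6 arrays as samples 3 were higher (Il1b with Il6 at 0.71 and Lif at 1.33) and 3 lower (Ccl2 at -0.51, Ccl7 at -0.54 and Cxcl5 at -0.53). With scan as a random block, chosen after seeing the data, 3 were higher (Il6 at 0.70, Lif at 1.33) and 5 lower (Csf1 -0.36, Ccl2 -0.51, Ccl7 -0.55, Cxcl5 -0.53, Cxcl12 -0.64); its estimated correlation within scans was -0.467, and both fits count repeat measurements as samples. The replicate block in 6 samples gave 2 higher (Il1b, and Lif at 1.33 with adjusted p = 0.0462) and 0 lower. Against the fit of 6 samples without it, the calls of Il6 (adjusted p = 0.0503), Ccl2 (0.0785), Ccl7 (0.0661) and Cxcl5 (0.0903) were lost. The arrays share only the number.

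Over all genes, 210 rose and 93 fell. The counts were 111 higher with normexp, 0 and 0 without the filter (limma; 4349 had an unadjusted p under 0.05), 3114 and 2587 with 6 samples, 966 and 922 with only the repeat scan averaged, 124 and 26 with the replicate block in 4 samples, 1422 and 1268 with it in 6, and 6429 and 6838 with scan as a random block. Leaving out 1 array gave 0 to 1201 higher and 0 to 1794 lower; the 0 came without siRNA-NC array 2 (limma; 7417 at an unadjusted p under 0.05), and the highest counts without siRNA-MEG3 array 2. These fits have a lone sample in 1 group, assumed to vary like the other group. Of all calls, 69.3% were higher, and 59.4 to 75% under the other scalings and background correction.

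Il15 turned to -0.00698 in the authors' deposited table and Irak1 to -0.38 with the median over its probes; the cause was not tested. Traf1 lost its call without the filter (3.65) and Cxcl13 with normexp (1.80) and without the filter (5.40). Slide as a block was not run, because the slide and scan marks do not place both groups together. The signal over background limits Il1b and Cxcl13, since their siRNA-NC levels are bounds.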
